A study of Amolops torrentis with 15 samples.

Results

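Homeobox genes were taken as the features of the deposited brain transcript table whose Swiss-Prot description contains the word homeobox or begins with POU domain, with 1 POU symbol set aside by the selection rule. The rule found 126 features among 44351, and their counts were summed per gene symbol into 82 genes among 36376 summed rows. A gene here means 1 such row, and rows under different symbols may be the same gene (POU3F3 and pou3f3b, OTX1 and otx1b). Of the 82 genes, 80 carry a symbol and 2 do not (XENK-2, whose closest match in the NR protein database is Nkx-2.2, and XHOX-7.1, whose closest match is MSX1). The levels of these genes were followed across all libraries as a check of the regional make-up of the brains.

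RNA came from the whole brain of the female torrent frog, Amolops torrentis, profiled by sequencing 15 libraries, 3 in each of 5 groups. The labels name the groups by the stimulus alone: dark contrast and blank contrast, called the contrast groups here, and visual, acoustic and audiovisual, called the stimulus groups. The labels give no age, no treatment of the contrast groups and no word on whether a sample is 1 frog or a pool, so p-values here reflect the scatter of the samples alone, part of which can be technical. Library totals ran from 12071194 to 16829356 estimated counts, and the correlation of log2 counts between any pair of libraries lay between 0.941 and 0.951. Neuronal and myelin genes were abundant (Snap25 at a mean of 1630 FPKM and MBP at 2430 FPKM), whereas GFAP, MOG, AQP4, OLIG2 and RBFOX3 were not found by symbol and are not analysed here.

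Homeobox genes encode transcription factors that bind DNA through the homeodomain, and in vertebrate embryos they divide the neural tube into regions: Hox genes in the hindbrain and spinal cord, Otx genes in the forebrain and midbrain, En and Gbx genes around the isthmus, Emx and Dlx genes in the telencephalon, and Nkx2-1 and Otp in the hypothalamus. Many stay active in the adult neurons of the region they helped to form. POU genes, which carry a further DNA-binding domain beside the homeodomain, and TALE genes such as Meis and Pknox, whose proteins act as partners of other homeodomain proteins, are used more broadly. In a whole brain sample, fewer cells of a type and less RNA per cell cannot be told apart.

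The homeobox genes covered the length of the brain, with the forebrain and the broadly used genes the most abundant. Mean levels ran from 0.741 to 122 FPKM (fragments scaled by the authors for transcript length and library total, so that genes of different length can be compared). The median homeobox gene stood at 4.72 FPKM, beside 5.23 FPKM for all summed rows. A mean of at least 10 FPKM was reached by 26 genes, 14 lay from 5 to 10, 39 from 1 to 5, and 3 (Evx2, SAX1 and Homez) fell under the minimum of 1 FPKM set for testing, which left 79 genes tested. Together the 82 genes took from 0.1612% (audiovisual 3) to 0.1813% (visual 1) of all counts of a library. The lowest FPKM in the table is 0.31, so a homeobox gene at 0 in any library is not analysed here.

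**Figure D1:**
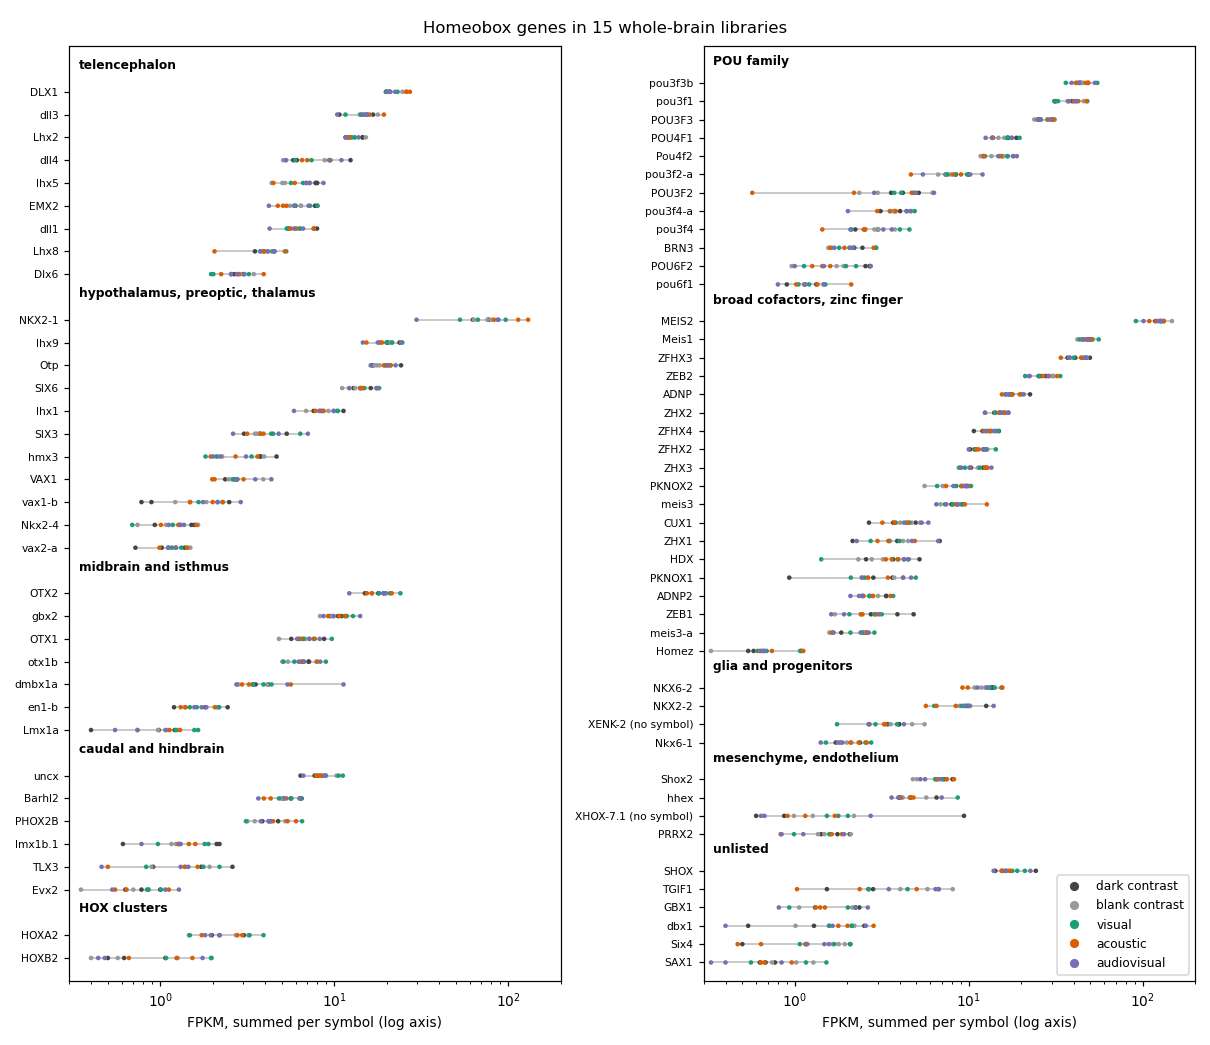
FPKM (log axis, summed per symbol) of 80 of the 82 homeobox genes in each of the 15 libraries, 1 point per library coloured by group, with genes arranged by regional list and a grey line from the lowest to the highest library. MEIS2 (mean 122 FPKM) and NKX2-1 (78.9 FPKM) led, and the colours of the 5 groups were mixed along most lines.

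Broadly used TALE and zinc finger genes were among the most abundant members. MEIS2, a TALE cofactor, averaged 122 FPKM. Its library levels, given throughout as CPM (counts scaled to the library total after TMM normalization) in the order of replicates 1, 2 and 3, were 135, 118 and 129 CPM in dark contrast, 146, 137 and 141 in blank contrast, 135, 129 and 106 in visual, 123, 123 and 127 in acoustic and 119, 104 and 136 in audiovisual brains. The 3 blank contrast libraries were the highest of all 15, the lowest of them at 137 CPM against 136 in audiovisual 3, and the other groups overlapped. Meis1, its close relative, averaged 48.1 FPKM and measured 42.9, 39.4 and 37.5 CPM in dark contrast, 38.5, 35.8 and 42.1 in blank contrast, 42.2, 35.5 and 46.7 in visual, 39.1, 38.5 and 42.3 in acoustic and 37.5, 40 and 40 in audiovisual brains. Its levels overlapped between all groups and spanned 1.32-fold.

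ZFHX3, a large zinc finger homeobox protein that in mouse is known from the circadian clock nucleus, averaged 42.6 FPKM over 7 features. It measured 74.4, 78.2 and 66.7 CPM in dark contrast, 82.5, 69 and 67.6 in blank contrast, 91, 76.1 and 84.4 in visual, 78.6, 71.1 and 63.1 in acoustic and 77.2, 74.9 and 73.7 in audiovisual brains, with visual 1 the highest and acoustic 3 the lowest. ZEB2, a zinc finger repressor with a degenerate homeodomain, averaged 27.4 FPKM. ZEB2 levels were 58.9, 61.9 and 57.8 CPM in dark contrast, 69.1, 71.7 and 67.3 in blank contrast, 47.7, 77.9 and 59.4 in visual, 72.9, 65.2 and 62.1 in acoustic and 51.8, 65.3 and 51.2 in audiovisual brains. The lowest and the highest of these, 47.7 and 77.9 CPM, both belonged to the visual group, so the spread within 1 group was as wide as that over the study. The 19 genes of the list of broad cofactors and zinc finger homeobox genes summed to 906 ± 29.3 CPM (SD, n = 15), a coefficient of variation of 3.23%. The 2 features of CUX1 carry the deposited name of the cut-like homeobox protein, but their closest NR match is CASP, a product of the same gene without the homeodomain, so the CUX1 level is uncertain as a homeobox level.

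Among the POU genes, which are active in neurons of many regions, class 3 members led. The feature set pou3f3b averaged 44.9 FPKM and measured 73.8, 63.9 and 63.9 CPM in dark contrast, 66.3, 63.5 and 66.3 in blank contrast, 53, 81.8 and 64.2 in visual, 71.9, 61.2 and 71.1 in acoustic and 79.5, 57.7 and 64.4 in audiovisual brains. Visual 1 was the lowest and visual 2 the highest library. POU3F3, which carries the same class 3 factor name on another feature, averaged 27.7 FPKM and measured 18.1, 17.1 and 20.3 CPM in dark contrast, 20.5, 16.7 and 21.2 in blank contrast, 19, 20.6 and 17.9 in visual, 19.4, 17 and 21.3 in acoustic and 17.8, 17 and 20.1 in audiovisual brains. Summed as 1 gene, the pair ran from 72.4 to 102 CPM, again with overlap between all groups.

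The class 3 gene pou3f1, known in mammals for its part in Schwann cell myelination, averaged 39.0 FPKM. Its levels were 15.6, 15.5 and 19.3 CPM in dark contrast, 21.4, 18.4 and 18.2 in blank contrast, 15.9, 22.4 and 15.1 in visual, 19.8, 22.8 and 19.7 in acoustic and 19.4, 19.9 and 18 in audiovisual brains. Acoustic libraries, at 19.7 to 22.8 CPM, lay above those of dark contrast, at 15.5 to 19.3 CPM, and visual libraries spanned both. All 12 POU symbols together summed to 150 ± 12 CPM (SD, n = 15), from 136 in audiovisual 3 to 175 in visual 2.

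The forebrain supplied the next level of abundance. NKX2-1, which in mammals sets up the ventral forebrain and the hypothalamus, averaged 78.9 FPKM and had the widest range between libraries of the 26 members with at least 10 FPKM. It measured 63.2, 49 and 61.6 CPM in dark contrast, 49.6, 62.6 and 64.3 in blank contrast, 76.7, 42.2 and 54.1 in visual, 66.3, 92 and 107 in acoustic and 23.4, 69.9 and 69.9 in audiovisual brains. The lowest library (audiovisual 1) and the highest (acoustic 3) differed 4.59-fold, acoustic libraries stood at 88.6 ± 20.7 CPM (SD, n = 3), and the means of the other groups lay between 54.4 and 58.9 CPM. The groups overlapped, since acoustic 1 lay below visual 1 and both upper audiovisual libraries. Almost all of this came from 1 feature of 991 bases (73.3 FPKM, 21.5 to 104 CPM) with a deposited Swiss-Prot match score of 266, whereas the other NKX2-1 feature, of 688 bases and with the higher score of 819, ran from 1.71 to 3.50 CPM. The identity of the abundant feature is therefore uncertain, and so is every level given here for NKX2-1 or for the list that holds it. Of the pairs of groups, audiovisual minus acoustic had the smallest p for this gene, with a log2 fold change of -0.70 (SE 0.33, edgeR adjusted p = 0.98).

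Otp, a hypothalamic factor of neuroendocrine neurons, averaged 19.4 FPKM and measured 23.8, 33.3 and 23.5 CPM in dark contrast, 23.5, 25.5 and 25.6 in blank contrast, 27.8, 29.8 and 27.9 in visual, 28.7, 27.1 and 30.1 in acoustic and 31.9, 28.3 and 22.9 in audiovisual brains. Dark contrast 2 was the highest library and audiovisual 3 the lowest, and the groups overlapped. The LIM homeobox gene lhx9, active in mammals in the developing thalamus and hypothalamus, averaged 20 FPKM. Its levels were 38.2, 42.3 and 47.9 CPM in dark contrast, 47.5, 35.9 and 43.3 in blank contrast, 42.3, 49.5 and 40.4 in visual, 41.5, 28.6 and 39.6 in acoustic and 49, 33 and 30.2 in audiovisual brains, with acoustic 2 lowest and visual 2 highest. The 11 genes of the hypothalamus, preoptic area and thalamus list summed to 191 ± 16.8 CPM (SD, n = 15), and acoustic 3, where NKX2-1 alone gave 107 CPM, held the highest sum of 234 CPM.

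DLX1, a distal-less factor that in mammals specifies GABA neurons born in the ventral telencephalon, averaged 22.2 FPKM and was the most abundant telencephalic member. It measured 30.3, 28.4 and 30.9 CPM in dark contrast, 28.3, 36.9 and 29.9 in blank contrast, 28.4, 33.4 and 31.4 in visual, 38.9, 38.7 and 37.6 in acoustic and 31.1, 30 and 31.5 in audiovisual brains. The 3 acoustic libraries lay above the other 12, with the lowest acoustic library at 37.6 CPM and the nearest other library (blank contrast 2) at 36.9. The 10 telencephalic genes summed to 196 ± 9.90 CPM (SD, n = 15), from 181 in visual 3 to 213 in acoustic 1. Among the region lists this was the most even, with a coefficient of variation of 5.06%.

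The genes of the midbrain, isthmus and hindbrain were less abundant. OTX2, required in vertebrate embryos for the forebrain and midbrain, led its list at 18.3 FPKM and measured 54.8, 56.7 and 45.1 CPM in dark contrast, 59.3, 51.1 and 58.6 in blank contrast, 72.5, 63.4 and 56 in visual, 46.6, 49.6 and 65.6 in acoustic and 59.9, 57.5 and 37 in audiovisual brains. Its lowest library was audiovisual 3 and its highest visual 1, a 1.96-fold range. The isthmus gene gbx2 stood at 10.6 FPKM (7.44 to 12.8 CPM) and the isthmus gene en1-b at 1.75 FPKM (1.18 to 2.27 CPM). The 7 midbrain and isthmus genes summed to 93.0 ± 11 CPM, and the 6 of the caudal and hindbrain list to 41.2 ± 4.46 CPM (SD, n = 15 each). Both sums were lowest in audiovisual 3, at 71.2 and 30.9 CPM.

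HOXA2 and HOXB2, which pattern the hindbrain, were the only Hox cluster symbols among the members. HOXA2 averaged 2.44 FPKM and measured 3.45, 2.61 and 2.52 CPM in dark contrast, 1.85, 4.04 and 3.50 in blank contrast, 4.61, 1.87 and 4.03 in visual, 3.42, 1.93 and 3.84 in acoustic and 2.52, 2.78 and 2.21 in audiovisual brains. Blank contrast, visual and acoustic brains each held both high and low libraries, so the groups overlapped throughout. HOXB2 averaged 1.04 FPKM and measured 0.421, 0.688 and 0.326 CPM in dark contrast, 0.232, 0.851 and 0.372 in blank contrast, 1.26, 0.701 and 1.29 in visual, 0.805, 0.435 and 1.01 in acoustic and 0.314, 1.14 and 0.299 in audiovisual brains. Both Hox genes were lowest in blank contrast 1, and the pair summed to 2.08 CPM there and to 5.88 CPM in visual 1. The lesser HOXA2 feature has Hoxb-2 as its closest NR match and shares a cluster number with the HOXB2 feature, so reads may be divided differently between the pair than their symbols say.

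**Figure D2:**
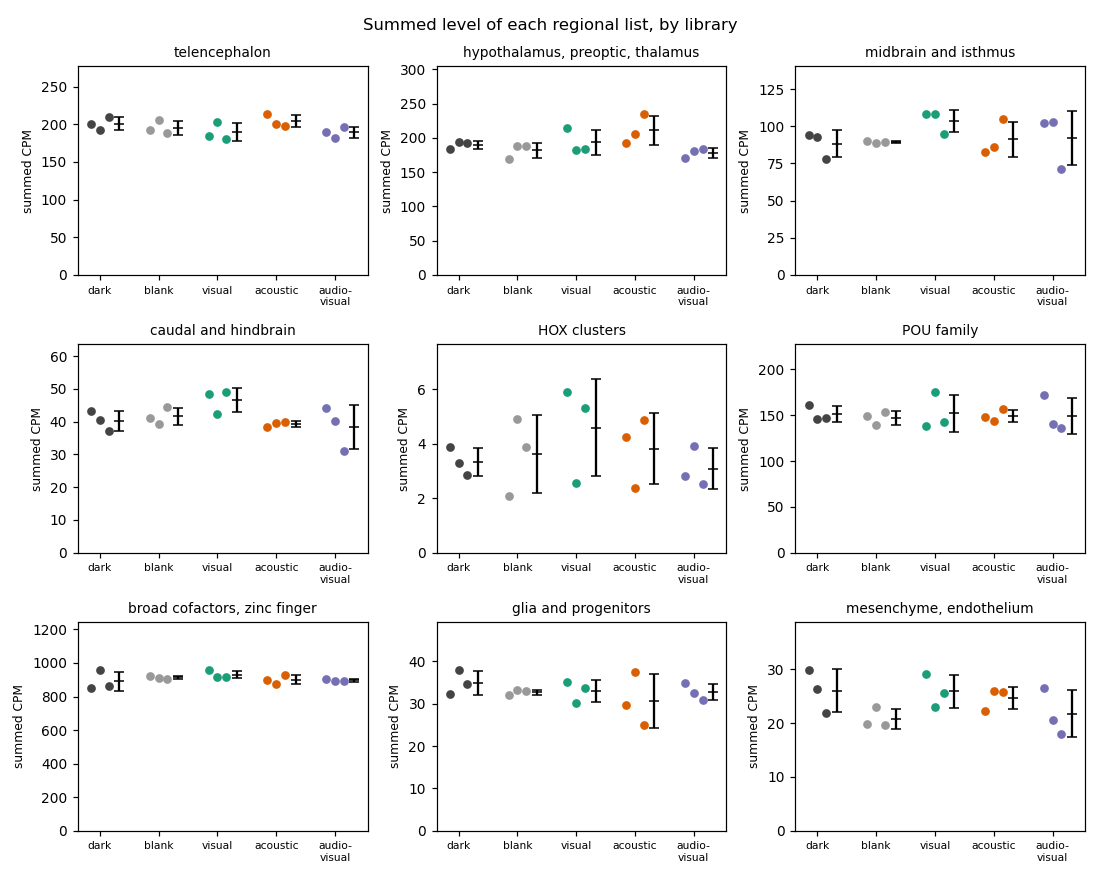
Summed CPM of the genes of each list, 1 point per library in the order of replicates 1, 2 and 3, with the group mean and SD (bars, n = 3) to the right of each group and the vertical axis starting at 0. The telencephalic sum stayed between 181 and 213 CPM, whereas the midbrain sum ran from 71.2 (audiovisual 3) to 108 CPM (visual 1).

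A balance between regional lists was taken in each library as the log2 ratio of the midbrain, hindbrain and Hox sums to the telencephalic sum. OTX2, a gene of the forebrain as well as the midbrain, made up a large part of the first term. OTX1 (group means of 5.42 to 7.08 CPM) and otx1b (10.8 to 12.4 CPM) are Otx genes too. The caudal and hindbrain part came mostly from uncx (16.2 to 22.7 CPM) and Barhl2 (10.1 to 12.7 CPM). Where these genes are active in this brain was not tested. The ratio therefore does not set only caudal against rostral genes. The balance averaged -0.51 with an SD of 0.21 over the 15 libraries, the SD within groups was 0.20, and the group means ran from -0.61 to -0.29. Audiovisual 3 was lowest at -0.90, where the midbrain, hindbrain and Hox genes summed to 105 CPM (OTX2 alone 37) against 196 for the telencephalon. Visual 1 was highest at -0.18, with 163 CPM (OTX2 alone 72.5) against 184.

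By group the balance was -0.61 ± 0.19 in dark contrast, -0.53 ± 0.09 in blank contrast, -0.29 ± 0.12 in visual, -0.61 ± 0.19 in acoustic and -0.52 ± 0.33 in audiovisual brains (SD, n = 3 each). The visual libraries, at -0.18, -0.41 and -0.28, lay in the upper part of the range. They overlapped with audiovisual 1 and 2 at -0.35 and -0.31 and with acoustic 3 at -0.40. No test was made of this ratio. The visual group also held the highest midbrain sum, 104 ± 7.70 CPM against group means of 88.4 to 92.1 CPM elsewhere, and again the libraries overlapped.

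Telencephalic markers without a homeobox gave another view of the same libraries. The sum of Tbr1, NEUROD6 and eomes, which mark telencephalic and mostly glutamatergic neurons or their precursors, was 321 ± 52.6 CPM (SD, n = 15). NEUROD6 alone, with group means of 270 to 333 CPM, made up most of it, so the sum mainly follows 1 gene. The sum was lowest in visual 1 at 186 CPM and highest in acoustic 1 at 429 CPM. In visual 1, Tbr1 (7.08 CPM), NEUROD6 (176 CPM) and the glutamate transporter gene slc17a7 (277 CPM) were each the lowest of the 15 libraries. Eomes, at 2.78 CPM in visual 1, was lower in dark contrast 1 (1.09), audiovisual 1 (1.19) and audiovisual 2 (1.43). The general neuron genes SYT1 (596 CPM) and STMN2 (357 CPM) and the glial gene SLC1A3 (294 CPM) were also lowest in visual 1. The neuron genes Snap25, GAD1, Gad2, elavl4 and SLC17A6 were not, and the myelin gene MBP was at its highest (8660 CPM). The lows of visual 1 were thus not confined to telencephalic markers. The telencephalic homeobox sum there, 184 CPM, was also near the low end of its range of 181 to 213 CPM. In audiovisual 3 the marker sum was 311 CPM, close to the mean, and the midbrain, hindbrain and Hox sum, with its large part from OTX2, was low. The same library had the highest levels of the pituitary hormone genes pomc, which encodes the precursor of adrenocorticotropin, and cga, which encodes the alpha subunit shared by several glycoprotein hormones. Pomc stood at 7700 CPM in audiovisual 3, beside 5050 in dark contrast 2, 1940 in acoustic 2, 1820 in audiovisual 1 and 11.7 to 456 CPM in the other libraries. Cga stood at 1890 CPM in audiovisual 3, 654 in audiovisual 1 and 101 in acoustic 3, and ran from 0.701 to 14.3 CPM elsewhere. In the other libraries named for high pomc, the balance was -0.49 in dark contrast 2, -0.66 in acoustic 2 and -0.35 in audiovisual 1. The part of tissue composition, pituitary tissue included, in any of these libraries was not tested.

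**Figure D3:**
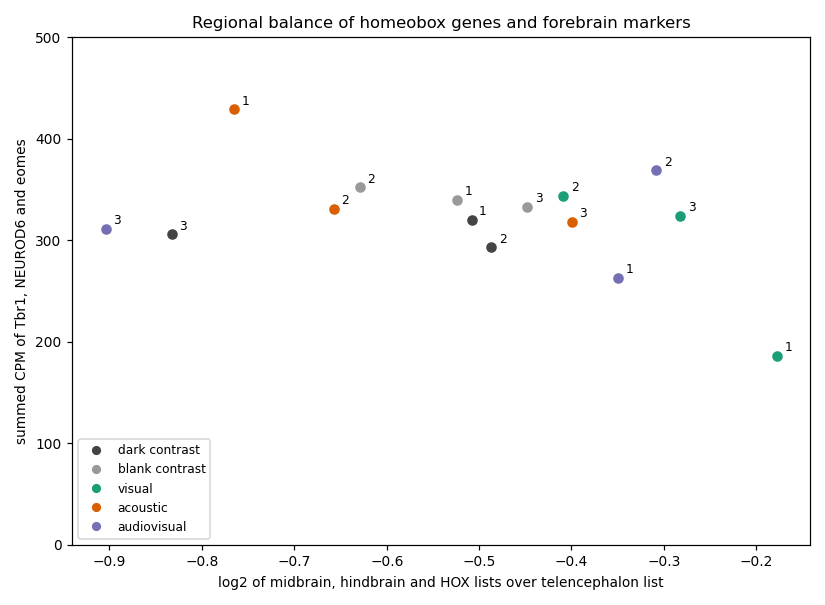
Each point is 1 library, with its replicate number: the horizontal axis gives the log2 ratio of the midbrain, hindbrain and Hox sums to the telencephalic homeobox sum, and the vertical axis the summed CPM of Tbr1, NEUROD6 and eomes, starting at 0. Visual 1 stands at the right end (-0.18) with the lowest marker sum (186 CPM), and audiovisual 3 at the left end (-0.90) with a marker sum of 311 CPM. NEUROD6 makes up most of the marker sum.

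Some libraries held the extreme values of more homeobox genes than others. Visual 1 held the highest value of 12 of the 79 tested genes (15.2%), where it held the highest value of 6.94% of all genes tested, followed by visual 2 with 10 (12.7%, against 6.34%) and audiovisual 1 with 9 (11.4%, against 6.40%). Audiovisual 3 held the lowest value of 12 (15.2%, against 6.68% of all genes), blank contrast 1 the lowest of 11 (13.9%, against 6.77%) and audiovisual 2 the lowest of 9 (11.4%, against 6.03%). Blank contrast 1 had a balance of -0.52, close to the mean. Genes at their highest in visual 1 included OTX2, Lmx1a, uncx and HOXA2 of the midbrain, hindbrain and Hox lists and also Lhx8 of the telencephalic list (9.10 CPM), a gene of cholinergic neurons in mouse.

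The glial and mesenchymal lists had their extremes in other libraries in part. The list of glial and progenitor genes (NKX2-2, NKX6-1, NKX6-2 and XENK-2, which act in the ventral neural tube and, in mammals, in oligodendrocyte development) summed to 32.9 ± 3.25 CPM, from 25 in acoustic 3 to 37.9 in dark contrast 2. NKX6-2 made up much of this, at 13.9 CPM in acoustic 3 and 28.6 CPM in acoustic 2, the ends of its range. The list of mesenchyme, meninges and endothelium (Shox2, hhex, XHOX-7.1 and PRRX2) summed to 23.8 ± 3.53 CPM and was lowest in audiovisual 3 at 18.0 CPM. Shox2 alone, with group means of 12.2 to 16.7 CPM, made up most of this sum. Of the meninges markers COL1A1, COL3A1, COL1A2 and LUM, the first 2 were also lowest in audiovisual 3, at 3.34 and 1.67 CPM. COL1A2 and LUM were lowest in dark contrast 3 instead, at 4.40 and 0.733 CPM. All of them were highest in blank contrast 2, where COL1A1 stood at 21.6 CPM and the homeobox list at 22.9 CPM, under its mean.

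Comparisons of the groups found no homeobox gene past the threshold. With edgeR's quasi-likelihood test and Benjamini-Hochberg adjustment over the 34980 genes tested, 0 of 79 homeobox genes had an adjusted p under 0.05 in the F test over the 5 groups, where 0% of all genes were called. At an unadjusted p under 0.05 the F test counted 2 homeobox genes (2.53%), beside 4.86% of all genes. DESeq2 also called 0 homeobox genes in each of the 12 comparisons, where it called 11 to 149 of all genes. It counted between 1 and 7 homeobox genes at an unadjusted p under 0.05, for which no share of all genes is given here. In simulated data of the same size the F test recovered 20% of 2-fold and 73% of 4-fold changes. Stimulus minus contrast recovered 53% and 97%. The pair of groups that was simulated, acoustic minus dark contrast, recovered 13% and 68%. These shares are over genes drawn from the whole table, and recovery for homeobox genes alone was not computed. Each simulated gene took the spread that the fit gave to its count level, so scatter particular to a gene was left out. A p that misses the threshold does not show that the groups were alike. The 10 pairs of groups share libraries with each other, so their values are given side by side and no overlap between them is read as a result.

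The 3 stimulus groups were next set against the 2 contrast groups, the comparison with the most libraries on each side. It called 0 of 79 homeobox genes and 0% of all genes at the adjusted threshold, and 1 homeobox gene beside 4.72% of all genes at an unadjusted p under 0.05. In simulated data this comparison recovered 53% of 2-fold and 97% of 4-fold changes. Of the homeobox genes, 44 of 79 lay above 0 beside 49.3% of all genes, with a median log2 fold change of 0.02 (all genes -0.0033) and a range from -0.72 to 0.66. By region, 4 of 10 telencephalic genes lay above 0 (median -0.05), 8 of 11 hypothalamic and thalamic genes (0.08) and 6 of 7 midbrain and isthmus genes (0.14). So did 2 of 5 caudal and hindbrain genes (-0.05), 6 of 12 POU genes (0.01) and 9 of 18 broad cofactors (0.01). Of the 2 Hox genes, HOXA2 stood at 3e-04 (SE 0.29) and HOXB2, on a mean of 9.6 counts per library, at 0.66 (SE 0.39). Their median of 0.33 is thus not a rise shared by both. No list had a member past the threshold.

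The 1 gene counted was XENK-2, the Nkx-2.2 match without a symbol, which averaged 3.51 FPKM. It measured 1.60, 1.79 and 1.79 CPM in dark contrast, 2.55, 1.70 and 2.16 in blank contrast, 1.71, 1.32 and 0.806 in visual, 1.21, 1.55 and 1.48 in acoustic and 1.19, 1.93 and 1.19 in audiovisual brains. Contrast libraries ran from 1.60 to 2.55 CPM and stimulus libraries from 0.806 to 1.93 CPM, so they overlapped, and the log2 fold change was -0.48 (SE 0.21, edgeR adjusted p = 1). The feature is 661 bases long and rests on a mean of 22.5 counts per library. Its symbol-bearing counterpart NKX2-2 measured between 2.35 CPM (acoustic 1) and 5.91 CPM (audiovisual 1). Both features have the same closest NR match and near cluster numbers, so reads may be divided between them. Summed as 1 gene, they ran from 5.51 to 7.02 CPM in contrast libraries. In stimulus libraries the sum ran from 3.45 CPM (visual 3) to 7.13 CPM (audiovisual 1), so the contrast range lay within it.

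The gene with the smallest p of all was lhx5, a LIM homeobox gene that in mouse acts in the forebrain and hippocampus. It averaged 6.52 FPKM on 1 feature and measured 25.9, 25.1 and 25.8 CPM in dark contrast, 14, 17.4 and 16.3 in blank contrast, 23.3, 18.5 and 21.9 in visual, 19.3, 22.3 and 14.8 in acoustic and 22.6, 28 and 23.7 in audiovisual brains. Dark contrast libraries lay between 25.1 and 25.9 CPM, above every blank contrast library, and visual and audiovisual libraries also lay above every blank contrast library, while acoustic libraries overlapped with them. The F test gave an edgeR adjusted p of 0.958. Blank minus dark contrast gave a log2 fold change of -0.69 (SE 0.17, edgeR adjusted p = 0.83), with a range of adjusted p from 0.0946 to 0.956 over the alternatives. This comparison counted 4 homeobox genes at an unadjusted p under 0.05, beside 5.64% of all genes, and 0 at the adjusted threshold, beside 0%, with 31 of 79 above 0 (all genes 48.7%).

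Audiovisual and visual brains were also higher than blank contrast in lhx5, in comparisons that share the same 3 low blank contrast libraries. Audiovisual minus blank contrast gave 0.64 (SE 0.17, edgeR adjusted p = 1, from 0.225 to 1 over the alternatives). Visual minus blank contrast gave 0.42 (SE 0.17, edgeR adjusted p = 1). Each of these pairs counted 2 homeobox genes at an unadjusted p under 0.05, beside 4.58% of all genes for audiovisual and 4.59% for visual, and 0 at the adjusted threshold beside 0%. In visual minus blank contrast 53 of 79 homeobox genes lay above 0 beside 50.5% of all genes, with a median of 0.12, and without visual 1 there were 47 with a median of 0.07. In audiovisual minus blank contrast 37 lay above 0 (all genes 50.1%). Without audiovisual 3 there were 46, with the median moving from -0.03 to 0.06. For fits without 1 library, here and below, no share of all genes is given, so these counts have no background beside them.

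The acoustic comparisons were led by DLX1 and meis3. For DLX1 acoustic minus dark contrast gave a log2 fold change of 0.36 (SE 0.12, edgeR adjusted p = 0.964), from libraries of 38.4 ± 0.739 against 29.9 ± 1.28 CPM (SD, n = 3 each). The fold change was 0.28 against blank contrast, 0.31 against visual and, for audiovisual minus acoustic, -0.31, with adjusted p of 1, 0.97 and 0.97 (edgeR). Of the 3 features with this symbol, the most abundant (11.9 FPKM) measured 24.7 to 28.4 CPM in acoustic and 18.9 to 25.5 CPM in the other libraries, so that feature alone overlapped. That feature, of 1924 bases, has a deposited Swiss-Prot match score of 266, beside 763 and 390 for the other features. Its identity is therefore uncertain, and so are the levels given here for DLX1, of whose counts it holds the larger part. Acoustic minus dark contrast counted 6 homeobox genes (7.59%) at an unadjusted p under 0.05, beside 5.06% of all genes, and 0 at the adjusted threshold beside 0%, with 35 of 79 above 0 (all genes 49.3%).

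The TALE gene meis3, which in Xenopus embryos promotes hindbrain fate, averaged 8.49 FPKM and measured 15.1, 18.5 and 18.9 CPM in dark contrast, 17, 18.6 and 13.9 in blank contrast, 17.7, 16.4 and 16.6 in visual, 27.4, 19.7 and 22.9 in acoustic and 17.2, 14.1 and 15.2 in audiovisual brains. All 3 acoustic libraries lay above the other 12, the lowest at 19.7 CPM against 18.9 in dark contrast 3. Audiovisual minus acoustic gave -0.59 (SE 0.17, edgeR adjusted p = 0.968), acoustic minus blank contrast 0.50 (SE 0.17, edgeR adjusted p = 1) and acoustic minus visual 0.47 (SE 0.17, edgeR adjusted p = 0.97). The F test gave an edgeR adjusted p of 0.996. These pairs counted 5, 5 and 3 homeobox genes at an unadjusted p under 0.05, beside 5.01%, 4.63% and 5.07% of all genes, and 0 each at the adjusted threshold beside 0%. Above 0 lay 42 of 79 homeobox genes in audiovisual minus acoustic, beside 49.6% of all genes, 38 in acoustic minus blank contrast, beside 50.3%, and 32 in acoustic minus visual, beside 49.6%.

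This pattern of meis3 depended on how features were summed. One of its features, of 3609 bases, has the neighbouring cluster number, the same match score of 458 and the same NR match as the 3601-base feature named meis3-a, and reads may be divided between such near copies. The 3609-base feature measured 10.6 to 12.7 CPM in acoustic libraries, whereas meis3-a measured 9.80, 6.22 and 6.20 CPM there, and up to 10.9 CPM in visual 2. Summed with meis3-a, the acoustic libraries measured 37.2, 26.0 and 29.2 CPM against 20.4 to 28.0 CPM elsewhere, so they overlapped. Audiovisual minus acoustic then gave a log2 fold change of -0.36 (edgeR adjusted p = 0.979), and the summed gene still had an unadjusted p under 0.05 in that pair but not in the F test.

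**Figure D4:**
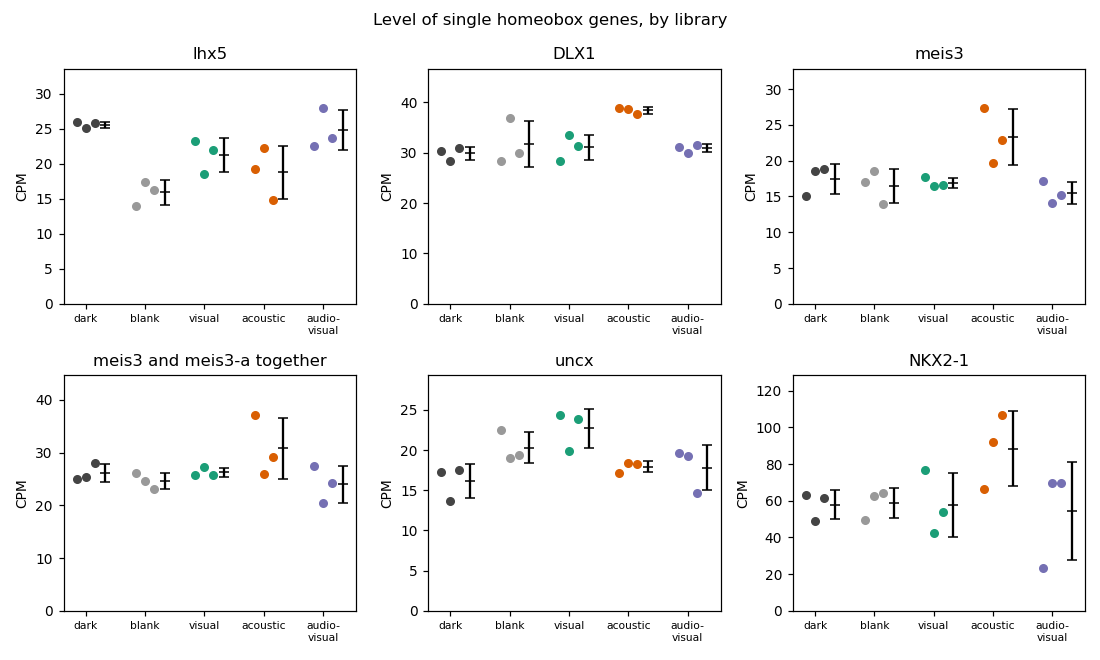
CPM of lhx5, DLX1, meis3, meis3 summed with meis3-a, uncx and NKX2-1, 1 point per library in the order of replicates 1, 2 and 3, with the group mean and SD (n = 3) to the right and the vertical axis starting at 0. Acoustic libraries lie above the others for DLX1 (37.6 to 38.9 CPM) and meis3 but overlap with them once meis3-a is added, and NKX2-1 runs from 23.4 to 107 CPM.

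The visual and audiovisual comparisons were led by other genes. For uncx, a paired-type factor (8.62 FPKM), levels were 17.3, 13.7 and 17.5 CPM in dark contrast, 22.5, 19 and 19.4 in blank contrast, 24.4, 19.9 and 23.8 in visual, 17.2, 18.4 and 18.2 in acoustic and 19.6, 19.2 and 14.6 in audiovisual brains. Visual libraries lay above every dark contrast library but overlapped with blank contrast, and visual minus dark contrast gave 0.49 (SE 0.16, edgeR adjusted p = 0.913). That pair counted 2 homeobox genes at an unadjusted p under 0.05, beside 5.46% of all genes, and 0 at the adjusted threshold beside 0%, with 39 of 79 above 0 (all genes 49.3%).

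ZEB1, a zinc finger repressor related to ZEB2 (2.73 FPKM), measured 11.3, 15.3 and 19.4 CPM in dark contrast, 11.4, 9.93 and 6.85 in blank contrast, 8.28, 12.9 and 11.8 in visual, 9.73, 9.83 and 12.2 in acoustic and 12.5, 6.49 and 7.82 in audiovisual brains. Dark contrast 3 was the highest library, and audiovisual 1 lay above dark contrast 1, so the groups overlapped. Audiovisual minus dark contrast gave -0.78 (SE 0.29, edgeR adjusted p = 0.91), and the pair counted 4 homeobox genes at an unadjusted p under 0.05, beside 5.39% of all genes, and 0 at the adjusted threshold beside 0%. In that pair 35 of 79 lay above 0, beside 48.4% of all genes, and 40 without audiovisual 3. ADNP2, a zinc finger homeobox protein, was the 1 gene with all 3 audiovisual libraries (10.5, 11.9 and 11.7 CPM) below the other 12, the nearest of which stood at 12 CPM.

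Lmx1a, which in mammals specifies midbrain dopamine neurons and the roof plate, was rare at 1.06 FPKM and measured 2.78, 2.20 and 0.896 CPM in dark contrast, 2.16, 2.91 and 2.46 in blank contrast, 3.73, 3.58 and 2.82 in visual, 1.68, 2.92 and 2.63 in acoustic and 2.45, 1.64 and 1.25 in audiovisual brains. Visual libraries, at 2.82 to 3.73 CPM, lay above the 3 audiovisual libraries, and audiovisual minus visual gave -0.92 (SE 0.38, edgeR adjusted p = 1). That pair counted 2 homeobox genes at an unadjusted p under 0.05, beside 4.62% of all genes, and 0 at the adjusted threshold beside 0%. It had 28 of 79 homeobox genes above 0 (all genes 49.3%), 31 without visual 1 and 33 without audiovisual 3. Counting every gene with 1 group clear of the other 4 in either direction gave MEIS2, DLX1, meis3 and ADNP2, which is 4 of 79 (5.06%) beside 2.22% of all genes tested.

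Related genes from outside the set gave the same counts of calls. Of 16 further homeodomain genes in the table whose descriptions do not hold the word (among them PAX6, irx1 and ISL1), 15 were tested and edgeR called 0 in any of the 12 comparisons, with 0 to 2 at an unadjusted p under 0.05. Of 19 region markers without a homeobox, 0 were called, with 0 to 3 at an unadjusted p under 0.05. Over the 12 comparisons 0% of all genes were called, and 4.58% to 5.64% had an unadjusted p under 0.05 (edgeR).

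The homeobox genes were about as steady between brains of a group as other genes of like depth, or steadier. Spread is given as the residual SD of log2 CPM within groups. Its median over the 79 genes was 0.26, beside 0.42 over all genes tested and 0.25 over the 10311 genes with a symbol, which are more deeply counted (median of 317 counts per library against 123 for homeobox genes). In the range of 50 to 312 mean counts, homeobox genes had a median of 0.26 (39 genes) and genes with a symbol 0.33 (4216 genes). The highest over the lowest library was under 2-fold for 39 of the 79 genes, 2-fold to 4-fold for 29 and at least 4-fold for 11. Of the 26 genes with at least 10 FPKM, 24 were under 2-fold, and NKX2-1 and NKX6-2 were the exceptions.

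Sums over features varied less than single features. For the 32 genes on several features, the median residual SD was 0.34 over their 76 features and 0.19 over the sums, and in 30 of the 32 genes the sum varied less than each of its features. A single feature of these genes is therefore a less steady measure than the sum.

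**Figure D5:**
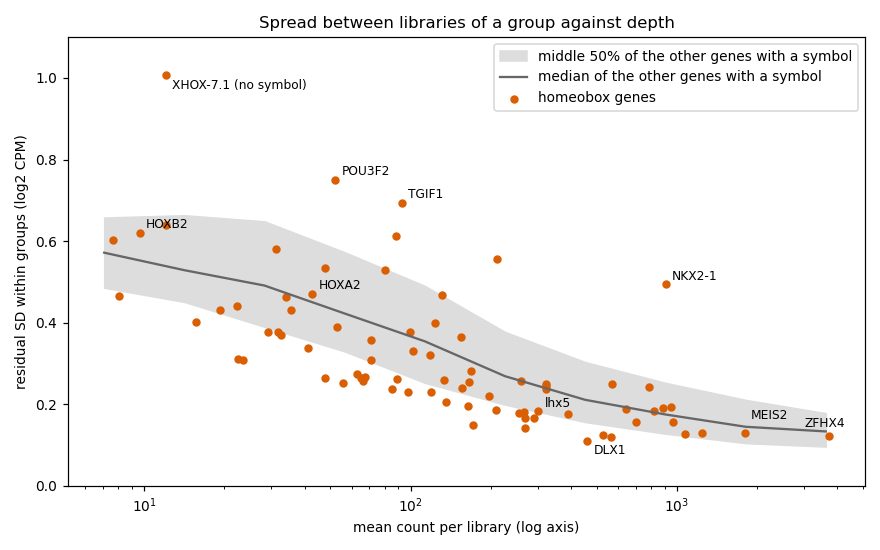
Residual SD of log2 CPM within groups (10 residual degrees of freedom) against mean count per library on a log axis, 1 point per tested homeobox gene, with the median (line) and middle 50% (band) of the other genes with a symbol. NKX2-1, at an SD of 0.49, lies above the band for its depth, as do XHOX-7.1 (1.01), POU3F2 (0.75) and TGIF1 (0.69).

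The 10 genes with the widest spread were mostly rare, and in several a single library made the spread. XHOX-7.1, the MSX1 match (1.90 FPKM), had the largest residual SD of 1.01 and measured 4.63, 0.275 and 0.407 CPM in dark contrast, 0.463, 1.06 and 0.596 in blank contrast, 0.822, 0.934 and 0.725 in visual, 0.537, 0.435 and 0.809 in acoustic and 0.314, 1.28 and 0.299 in audiovisual brains. Dark contrast 1 stood apart at 4.63 CPM, and the next highest library was audiovisual 2 at 1.28 CPM. POU3F2 (3.91 FPKM, SD 0.75), the class 3 factor of neuroendocrine neurons in mouse, measured 4.04, 4.75 and 3.34 CPM in dark contrast, 2.78, 2.27 and 5.81 in blank contrast, 3.79, 4.52 and 3.55 in visual, 0.537, 4.42 and 2.09 in acoustic and 5.97, 4.64 and 2.69 in audiovisual brains. Acoustic 1 stood apart at the low end, and summed with pou3f2-a it remained the lowest library at 1.81 CPM.

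TGIF1 (4.25 FPKM, SD 0.69), a TALE repressor in transforming growth factor beta signalling, measured 4.38, 3.92 and 2.28 CPM in dark contrast, 8.65, 12.6 and 6.10 in blank contrast, 10.1, 6.77 and 4.11 in visual, 1.54, 3.54 and 7.76 in acoustic and 5.35, 9.70 and 10.2 in audiovisual brains. Blank contrast libraries lay above every dark contrast library, and blank minus dark contrast gave 1.37 (SE 0.51, edgeR adjusted p = 0.869). PKNOX1 (3.15 FPKM, SD 0.61), a TALE partner protein, measured 5.73, 6.95 and 1.79 CPM in dark contrast, 7.18, 4.89 and 5.14 in blank contrast, 4.11, 9.81 and 5 in visual, 5.17, 6.72 and 8.43 in acoustic and 4.84, 9.06 and 8.24 in audiovisual brains, with 1 low library in dark contrast. ZHX1 (4.02 FPKM, SD 0.56), a zinc finger repressor, measured 14.4, 24.2 and 7.82 CPM in dark contrast, 12.6, 15.7 and 16.2 in blank contrast, 12.6, 10 and 14.8 in visual, 10.9, 12.4 and 18.1 in acoustic and 17.4, 8.21 and 24.4 in audiovisual brains. Its lowest library was dark contrast 3 and its highest audiovisual 3, and both groups also held the opposite end.

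The rest were rare genes, of which TLX3, lmx1b.1 and HOXB2 belong to the hindbrain and Hox lists and dbx1 and GBX1 to no regional list. TLX3 (1.40 FPKM, SD 0.64), which in mouse marks glutamatergic neurons of the dorsal spinal cord and hindbrain, measured 0.589, 1.58 and 1.06 CPM in dark contrast, 0.849, 0.567 and 1.19 in blank contrast, 0.506, 1.09 and 1.37 in visual, 1.01, 0.311 and 0.877 in acoustic and 0.817, 0.285 and 0.896 in audiovisual brains. The ventral progenitor gene dbx1 (1.75 FPKM, SD 0.60) measured 0.421, 0.757 and 0.163 CPM in dark contrast, 0.309, 0.496 and 0.670 in blank contrast, 0.632, 0.467 and 0.645 in visual, 0.604, 0.560 and 0.877 in acoustic and 0.503, 0.785 and 0.119 in audiovisual brains. Neither separated any group, and dbx1 was lowest in audiovisual 3 and next lowest in dark contrast 3. The order of libraries for dbx1 is uncertain, since it rests on a mean of 7.6 counts, the lowest library at 2.

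GBX1 (1.76 FPKM, SD 0.58), a relative of gbx2 active in the mouse spinal cord, measured 3.03, 2.75 and 1.63 CPM in dark contrast, 1.31, 2.84 and 2.68 in blank contrast, 2.78, 1.17 and 2.58 in visual, 1.74, 1.87 and 1.69 in acoustic and 3.33, 2.78 and 1.02 in audiovisual brains. It too was lowest in audiovisual 3. The gene lmx1b.1 (1.40 FPKM, SD 0.54), needed in mouse for serotonin neurons of the hindbrain, measured 5.14, 5.16 and 1.47 CPM in dark contrast, 2.70, 3.05 and 3.05 in blank contrast, 4.30, 2.34 and 4.59 in visual, 3.49, 3.79 and 3.10 in acoustic and 3.14, 3.14 and 1.91 in audiovisual brains. Dark contrast 3 was its lowest library and audiovisual 3 its next lowest. HOXB2, the last of the 10, had an SD of 0.62.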

How the data were processed

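Whole brains in 15 libraries (5 groups of 3) were analysed from 1 deposited table. Per the labels' protocols, Trizol was used for extraction and the NEBNext Ultra kit for the libraries. The authors' values are estimated counts per clustered transcript, not normalized, per the file headers, and 57.4% are whole to within 1e-06. The deposited FPKM (fragments scaled for length and library total) and the deposited Swiss-Prot match score and feature length were also made by the authors. The sources used here name no aligner, assembler, quantifier or strand, so near copies, overlapping genes and antisense genes may share reads.

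Estimated counts were rounded and summed per symbol, case ignored, with member features kept apart from other features of the same symbol (CUX1 and dll1). Rows with a mean FPKM of at least 1 (34980) were scaled by TMM and fitted by edgeR 4.0.16 (R 4.3.3) with 1 spread shared by all groups (common biological coefficient of variation 0.305, with 10 residual degrees of freedom). The standard error is the absolute fold change over the square root of its F statistic. Spread used log2 CPM with a prior count of 2. Benjamini-Hochberg adjustment ran over all genes tested, with a threshold of 0.05. The procedure was tested on simulated data. Alternatives were DESeq2 1.42.0, median-of-ratios scaling, other filters, other summing, a replicate block, only the groups compared, and leaving out each library, and the closing section gives their effect.

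The members and lists were chosen with earlier results of these data known. Values in every library are given for the 12 members with the highest mean FPKM, the Hox members, the members with an unadjusted p under 0.05 in the F test or in stimulus against contrast (none passed the threshold), the smallest p of each pair of groups, and the 10 members of largest residual SD. Some items under this rule are not reported here. OTX2, NKX6-2, NKX2-2, Lhx8, gbx2, en1-b, meis3-a and ADNP2 fall outside this rule and were named after their values were seen, as were the marker genes beside them. Counts set the precision, and no sequence of the features is held in the table used here.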

Additional observations from a re-analysis of the deposited data

How the results depend on the processing

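None of the 79 homeobox genes passed the threshold in any of the 12 comparisons under any of the alternatives (286 counts, all 0). DESeq2 called from 11 to 149 genes of the whole table per comparison and no homeobox gene among them. Of 766 alternative values, 765 kept their side of the threshold or stayed within the replicate spread, and 1 moved: the summed level of the broad cofactor list, stimulus minus contrast, was 0.0114 on the log2 scale as a sum of CPM and -0.0474 as a sum of FPKM, and the cause was not tested. Among 11 fold changes of named genes, the smallest adjusted p was 0.0946 (lhx5, blank minus dark contrast, DESeq2). Tested as the most abundant feature alone, meis3 gave -0.25 for audiovisual minus acoustic in place of -0.59. The median residual SD of homeobox genes lay between 0.26 and 0.27 over the alternatives. The merged symbols and the counts without visual 1 or audiovisual 3 were chosen after seeing the data.

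Libraries with the same number in different groups showed little shared variation. Their deviations from the group means correlated between -0.0419 and 0.0416 (mean 0.0068 over 30 pairs, 0 of them over 0.1). The labels do not say whether samples of the same number share anything else, such as a day of work, and these correlations cannot decide it. With the replicate number as a block, 0 homeobox genes passed the threshold in each comparison, and lhx5 in blank minus dark contrast gave -0.69 (edgeR adjusted p = 0.875).

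Depth limits the rare genes: XHOX-7.1, HOXB2 and dbx1 rest on means of 12.1, 9.61 and 7.6 counts per library.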
